A study of Mus musculus with 12 samples.

Results

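Arg2, Tmem92, Zfp809 and Sp110 are genes of the 2-cell-like state of mouse embryonic stem cells that lie outside the Zscan4, Usp17l, Tdpoz and Tcstv families. They were picked by symbol, with earlier results of these data known, and are 4 of the 22753 genes counted. Symbols were joined through the Ensembl identifiers that the deposited tables pair with them. The level of each was followed through the 12 libraries of the series.

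The study deposited RNA sequencing of embryonic stem cells from Sphk1fl/fl Sphk2-/- mice. By that label they carry a floxed gene for sphingosine kinase 1 and lack sphingosine kinase 2. Clones 4 and 10 were grown in serum with LIF and sorted on the fluorescence of Cre-GFP after 48 hours in 6 uM 4-hydroxytamoxifen. The GFP- cells are labelled Sphk1fl/fl Sphk2-/- and the GFP+ cells Sphk1-/- Sphk2-/-, with 3 libraries for each clone and gate. The question the design poses is how the loss of the remaining sphingosine kinase changes the transcriptome. The GFP- controls are also labelled Sphk2-/- and also received tamoxifen. A gate difference therefore joins the labelled loss of Sphk1 with Cre-GFP itself, and these cannot be told apart. Each line is 1 clone, the promoter that drives Cre-GFP is not given in the labels, and passages ran from 11 to 20. Nothing in the labels says that replicates were separate cultures, and a p-value here weighs a difference only against how far these libraries scatter, which may be technical.

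Embryonic stem cell cultures hold a small, changing fraction of cells that switch on transcripts of the embryo at the 2-cell stage, the time of zygotic genome activation. The transcription factor Dux, the Zscan4 genes and MERVL retroviral elements mark this state. Most of its well-known genes belong to clustered families whose copies share sequence. Arg2 encodes the mitochondrial arginase, which splits arginine into ornithine and urea. Tmem92 encodes a predicted membrane protein. Zfp809 encodes a KRAB zinc finger protein that recruits the corepressor TRIM28 to proviruses of murine leukaemia virus type. Sp110 encodes a nuclear body protein of the SP100 family, known as an interferon-inducible gene.

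All 4 genes were higher in the GFP+ library than in its GFP- partner in all 6 pairs, a pair being the libraries of a clone that carry one replicate number. How many of all genes did so was not counted. The median fold over the pairs was 9.68 for Sp110, 8.18 for Tmem92, 5.45 for Arg2 and 2.21 for Zfp809. Fitted within pairs with edgeR, all 4 rose in clone 10 and in the mean of both clones, and Tmem92 rose in clone 4. Across all libraries, with the pairs left out of the fit, edgeR called none of these gate differences, while DESeq2 called 1 of the 4 genes in clone 4, 3 in clone 10 and 4 in the mean. The share of all genes is given further on for edgeR only, so counts from other tools stand without one. In bulk RNA, fewer cells of a type and less RNA per cell cannot be told apart, so a level here joins the share of cells in the state with their content.

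Sequence shared with other genes was measured on the GENCODE M21 transcripts of the mm10 build, by counting the 50-base words of each gene that also occur in transcripts of another gene. Zfp809 (ENSMUSG00000057982, chr9:22225714-22243197, plus strand) shared 0% of its words and Tmem92 (ENSMUSG00000075610, chr11:94777217-94782703, minus strand) 1.93%. Arg2 (ENSMUSG00000021125, chr12:79130777-79156301, plus strand) shared 21.2%, all with Vti1b and Gm48780, which overlap its exons on the opposite strand by 285 and 116 bp. Sp110 (ENSMUSG00000070034, chr1:85576899-85598817, minus strand) shared 42.3% of 6914 words with 136 other genes. The 16 annotated genes of the Zscan4, Usp17l, Tdpoz and Tcstv families shared 15.0% to 100%, with a median of 47.2%. Being outside those families therefore does not make the sequence of Sp110 unique. Its largest partners were the pseudogenes Gm16026, with 26.7% of its words, and Gm15753, with 6.83%, followed by G530012D18Rik, with 4.96%, which overlaps it on the opposite strand, and the SP100 family gene C130026I21Rik, with 4.38%. How the authors' counting treated reads that match several places, and which strand setting it used, is not given in the sources used here. The Sp110 values, and the Arg2 values over its overlapped exons, are uncertain to that extent.

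Promoter windows were read from RefSeq (GRCm38.p6), which had entries for Zfp809 and Sp110. They are shown because RefSeq gives Sp110 an upstream start that lies 5074 bp before the deposited gene end and inside the span of its neighbour Sp140, a gene whose changes are given further on. Each line holds the 250 bases before a start, 5′ to 3′ on the strand of the gene, with CpG dinucleotides in capitals.
Sp110, upstream start, chr1:85603892-85604141, minus strand: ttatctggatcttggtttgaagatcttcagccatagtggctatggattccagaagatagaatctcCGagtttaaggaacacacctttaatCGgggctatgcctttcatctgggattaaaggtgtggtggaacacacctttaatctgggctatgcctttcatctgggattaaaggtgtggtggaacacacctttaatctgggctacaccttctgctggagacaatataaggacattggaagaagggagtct
Sp110, gene start, chr1:85598811-85599060, minus strand: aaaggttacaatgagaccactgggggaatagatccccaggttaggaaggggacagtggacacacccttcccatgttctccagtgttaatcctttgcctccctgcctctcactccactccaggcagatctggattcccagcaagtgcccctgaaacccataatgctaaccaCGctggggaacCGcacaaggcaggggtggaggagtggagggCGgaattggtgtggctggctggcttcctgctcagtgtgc
Zfp809, chr9:22225453-22225702, plus strand: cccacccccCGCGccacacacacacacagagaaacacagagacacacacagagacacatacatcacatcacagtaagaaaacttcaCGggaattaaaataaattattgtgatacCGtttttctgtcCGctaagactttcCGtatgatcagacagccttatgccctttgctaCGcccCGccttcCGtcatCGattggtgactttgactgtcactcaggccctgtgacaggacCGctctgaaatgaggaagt
The Sp110 windows held 2 and 3 CpG at a GC content of 44.0% and 56.8%. The Zfp809 window held 11 CpG at 48.4% GC, against a median of 6 CpG and 52.4% GC over 32851 windows of the same length. The upstream Sp110 window carries the 17-base segment ggaacacacctttaatc in 3 copies. An interferon-stimulated response element core, GAAANNGAAA, was searched on both strands and occurs in 2.98% of all windows. It was not present in these windows, which says only that these letters are not there.

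Library totals ran from 12968916 counts in clone 10 GFP- replicate 1 to 34258395 in clone 4 GFP+ replicate 3, and the counts of the 4 genes from 12 to 7607. Sphk1 was between 0.694 and 4.3 CPM (the count scaled to a common library total) in all libraries. By edgeR its log2 difference between gates over both clones was -0.63 across all libraries (SE 0.46, adjusted p = 0.767). Within pairs it was -0.61 (SE 0.25, adjusted p = 0.166, edgeR). Sphk2, labelled as lost in every library, was between 1.19 and 8.34 CPM. Its log2 difference between gates over both clones was 0.12 within pairs (SE 0.22, adjusted p = 0.727, edgeR). A gene total can include exons outside the deleted part. What the Sphk2 counts come from was not tested. Stem cell markers (Pou5f1, Nanog, Sox2, Zfp42, Esrrb, Utf1 and Dppa5a) summed to 4030 to 9190 CPM over the libraries. In clone 10 the sum was 5840 to 9190 CPM in GFP- and 5280 to 5690 CPM in GFP+ libraries. In clone 4 it was 4180 to 6750 and 4030 to 5240 CPM. By edgeR 0 of 7 changed with the gate within pairs. At an unadjusted p under 0.05, 3 of 7 were lower in clone 10 and 3 in the mean. In either direction, 3827 and 3998 of 15179 genes met that level. DESeq2 within pairs called 3 lower in clone 10 and 1 in the mean, and limma-voom 0. The mitochondrial share of counts was higher in the GFP+ library of each of the 6 pairs, with a range of 0.143% to 2.11% in GFP- and 0.849% to 2.32% in GFP+ libraries.

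Arg2 stood in clone 4 at 3.01, 0.677 and 0.85 CPM in GFP- replicates 1, 2 and 3 and at 20, 1.26 and 1.81 CPM in the GFP+ replicates. In clone 10 it stood at 7.48, 6.29 and 5.3 CPM in GFP- and at 83.5, 26.7 and 51 CPM in GFP+ cells. GFP+ replicate 1 of clone 4 lay far above the other 2 of its group, and the gates overlapped in that clone. In clone 10 every GFP+ library lay above every GFP- library. The group means were 1.51 ± 1.3 and 7.69 ± 10.7 CPM in clone 4 and 6.35 ± 1.09 and 53.7 ± 28.5 CPM in clone 10 (GFP- then GFP+, SD, n = 3). The clone 4 GFP+ libraries spread over more than their mean.

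Within pairs, the fold was 6.65, 1.86 and 2.13 in clone 4 and 11.2, 4.25 and 9.62 in clone 10 for replicates 1, 2 and 3. The fitted log2 change of Arg2 was 2.81 in clone 10 (SE 0.33, adjusted p = 0.00289, edgeR) and 2.33 in the mean of both clones (SE 0.26, adjusted p = 0.0025). In clone 4 it was 1.85 (SE 0.41, adjusted p = 0.173), which missed the threshold. Without clone 4 pair 1 the clone 4 value was 1.07. Across all libraries it was 2.3 (SE 0.94) in clone 4, and 0.08 there without GFP+ replicate 1. That edgeR fit gave 2.93 in clone 10 (SE 0.93, adjusted p = 0.348) and 2.61 in the mean (SE 0.66, adjusted p = 0.155), and called none.

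Tmem92 stood in clone 4 at 7.11, 1.41 and 0.971 CPM in GFP- replicates 1, 2 and 3 and at 68.8, 7.89 and 3.15 CPM in the GFP+ replicates. In clone 10 it stood at 31.2, 9.17 and 21.1 CPM in GFP- and at 398, 61.2 and 327 CPM in GFP+ cells. Replicate 1 was the highest in all 4 groups. The gates overlapped in clone 4 and were separate in clone 10. The group means were 3.16 ± 3.43 and 26.6 ± 36.6 CPM in clone 4 and 20.5 ± 11 and 262 ± 177 CPM in clone 10 (GFP- then GFP+, SD, n = 3).

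Its folds within pairs were 9.67, 5.61 and 3.25 in clone 4 and 12.8, 6.68 and 15.5 in clone 10. Tmem92 thus spread widely between replicates while both libraries of a pair moved together. The log2 change within pairs was 2.65 in clone 4 (SE 0.32, adjusted p = 0.0492), 3.34 in clone 10 (SE 0.28, adjusted p = 0.00147) and 3 in the mean (SE 0.21, adjusted p = 0.000868). The last is the smallest adjusted p in that comparison, which several genes share. By edgeR within pairs Tmem92 was the 1 gene of the 4 that passed in clone 4, and it no longer passed there without any single clone 4 pair, at an adjusted p of 0.467 without pair 1. DESeq2 within pairs called Arg2, Tmem92 and Sp110 in clone 4, and limma-voom none, with all 4 genes at an unadjusted p under 0.05. Across all libraries its clone 4 value was 3.02 (SE 1.13), and 0.80 without GFP+ replicate 1. That edgeR fit gave 3.5 in clone 10 (SE 1.13, adjusted p = 0.368) and 3.26 in the mean (SE 0.8, adjusted p = 0.141), and called none.

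Zfp809 stood in clone 4 at 13.3, 7.4 and 20.1 CPM in GFP- replicates 1, 2 and 3 and at 29.7, 9.05 and 26.1 CPM in the GFP+ replicates. In clone 10 it stood at 14.2, 19.1 and 20.5 CPM in GFP- and at 95.7, 41.9 and 90.8 CPM in GFP+ cells. The GFP- libraries of the clones overlapped. The GFP+ libraries of clone 10 were above all 9 others. The group means were 13.6 ± 6.34 and 21.6 ± 11 CPM in clone 4 and 17.9 ± 3.33 and 76.1 ± 29.7 CPM in clone 10 (GFP- then GFP+, SD, n = 3).

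The folds of Zfp809 within pairs were 2.23, 1.22 and 1.3 in clone 4 and 6.75, 2.19 and 4.42 in clone 10. Within pairs the log2 change was 1.88 in clone 10 (SE 0.26, adjusted p = 0.00695) and 1.26 in the mean (SE 0.18, adjusted p = 0.0099). It was 0.63 in clone 4 (SE 0.26, 95% confidence interval 0.04 to 1.23, adjusted p = 0.653). The clone 10 call was lost without clone 10 pair 3 (1.76, adjusted p = 0.0645) and the call in the mean without clone 4 pair 1 (1.14, adjusted p = 0.0693). Across all libraries edgeR called none of these changes of Zfp809. They were 0.68 in clone 4 (SE 0.47), 1.96 in clone 10 (SE 0.48, adjusted p = 0.189) and 1.32 in the mean (SE 0.33, adjusted p = 0.155).

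Sp110 stood in clone 4 at 1.37, 0.625 and 0.769 CPM in GFP- replicates 1, 2 and 3 and at 17.2, 3.92 and 1.17 CPM in the GFP+ replicates. In clone 10 it stood at 11.5, 5.92 and 10.6 CPM in GFP- and at 169, 40.1 and 148 CPM in GFP+ cells. The lowest value of clone 4 GFP+ cells lay below the highest of its GFP- cells, and the gates were separate in clone 10. The group means were 0.921 ± 0.394 and 7.43 ± 8.58 CPM in clone 4 and 9.35 ± 3 and 119 ± 69.3 CPM in clone 10 (GFP- then GFP+, SD, n = 3).

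The folds of Sp110 within pairs were 12.6, 6.27 and 1.52 in clone 4 and 14.7, 6.77 and 13.9 in clone 10. Clone 4 pair 3 was the nearest to level, and the other 2 clone 4 pairs were 6.27-fold or more apart. The log2 change within pairs was 3.36 in clone 10 (SE 0.38, adjusted p = 0.00237) and 2.96 in the mean (SE 0.30, adjusted p = 0.00177). In clone 4 it was 2.55 (SE 0.49, adjusted p = 0.119), with 1.68 without clone 4 pair 1 and 3.24 without pair 3. Across all libraries the Sp110 value in clone 4 was 2.96 (SE 0.84), and 1.44 without GFP+ replicate 1. In clone 10 that fit gave 3.52 (SE 0.81, adjusted p = 0.164, edgeR). Across all libraries the mean of both clones was 3.24 (SE 0.58, adjusted p = 0.051), the nearest of the 4 genes to the threshold. It passed without clone 4 GFP+ replicate 2 or 3 or clone 10 GFP+ replicate 2 (adjusted p from 0.0138 to 0.0423), and was 2.48 without clone 4 GFP+ replicate 1.

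**Figure D1:**
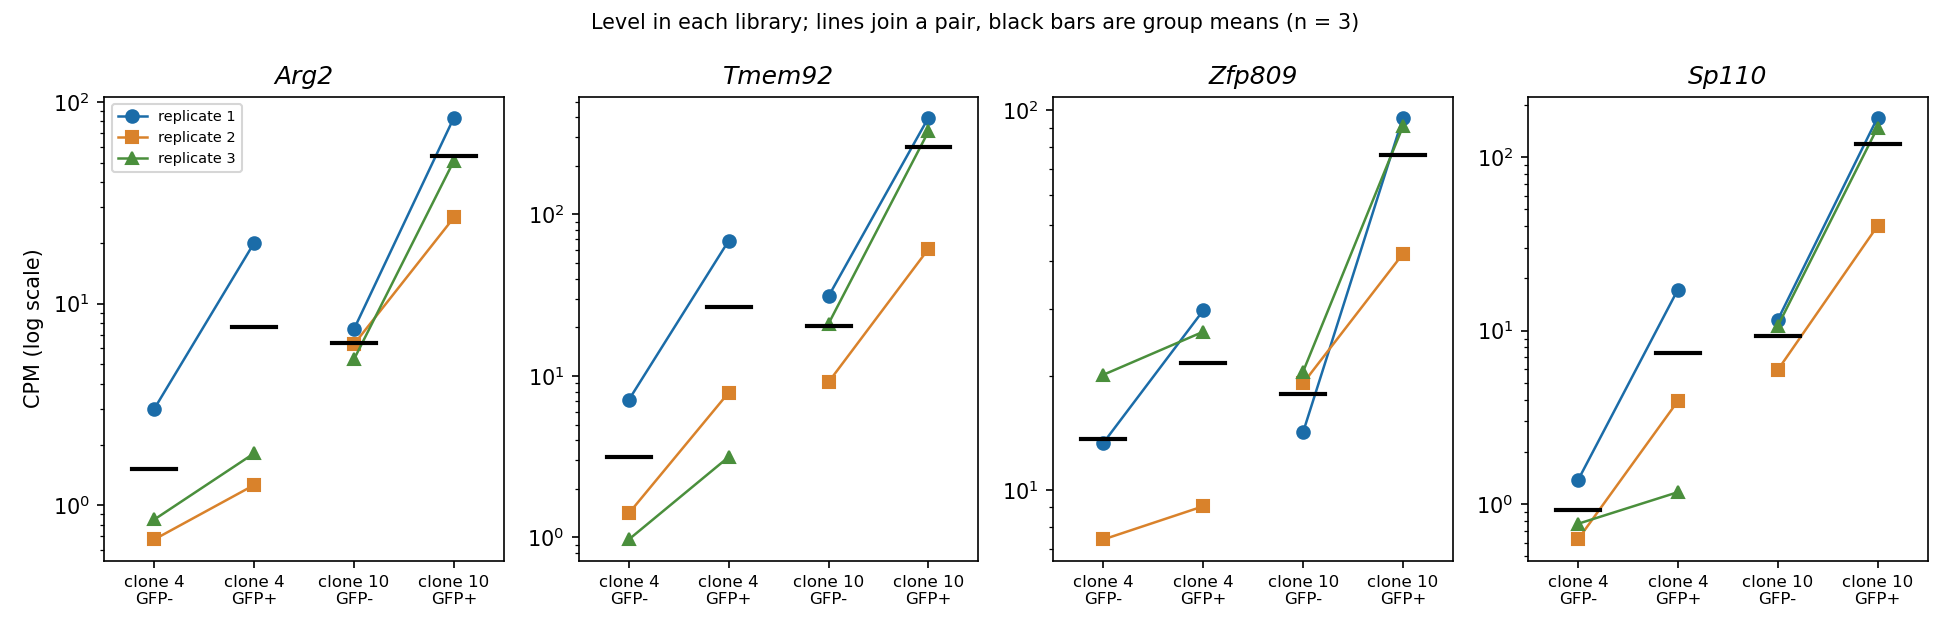
Level of each gene in CPM on a log axis in the 4 groups; symbols and colours mark replicates 1 to 3, lines join the GFP- and GFP+ library of a pair, and black bars are group means (n = 3). Every line goes up, the gates are separate in clone 10 for all 4 genes, and the clone 4 GFP+ libraries range from 1.26 to 20 CPM for Arg2 and from 3.15 to 68.8 CPM for Tmem92.

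The counts are read against all 15179 genes tested. The 4 genes were chosen with earlier results of these data known, so the counts describe them and are no test of enrichment. Within pairs, edgeR called 1 of the 4 genes higher in clone 4 against 0.0725% of all genes, 4 of 4 in clone 10 against 3.49% and 4 of 4 in the mean against 2.51%. Across all libraries it called 0 of 4 in clone 4 and 0 of 4 in clone 10, where 0% of all genes were called higher, and 0 of 4 in the mean, against 0.152%. At an unadjusted p under 0.05 these fits held 3, 4 and 4 of the genes, beside 209, 1131 and 1028 of all 15179 in either direction. Within pairs 1126, 3827 and 3998 of all genes met that level in clone 4, clone 10 and the mean. DESeq2 without the pairs called 1, 3 and 4 of the 4 genes, and limma-voom 0, 0 and 0. The share of all genes that DESeq2 and limma-voom called is not given here, so their counts cannot be set against it. In clone 10 the libraries of all 4 genes did not overlap between gates, GFP+ above, as for 10.9% of all genes. In clone 4 this held for 0 of 4, against 1.61%. The clone comparisons and the mean use the same libraries, so their calls are not separate evidence.

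**Figure D2:**
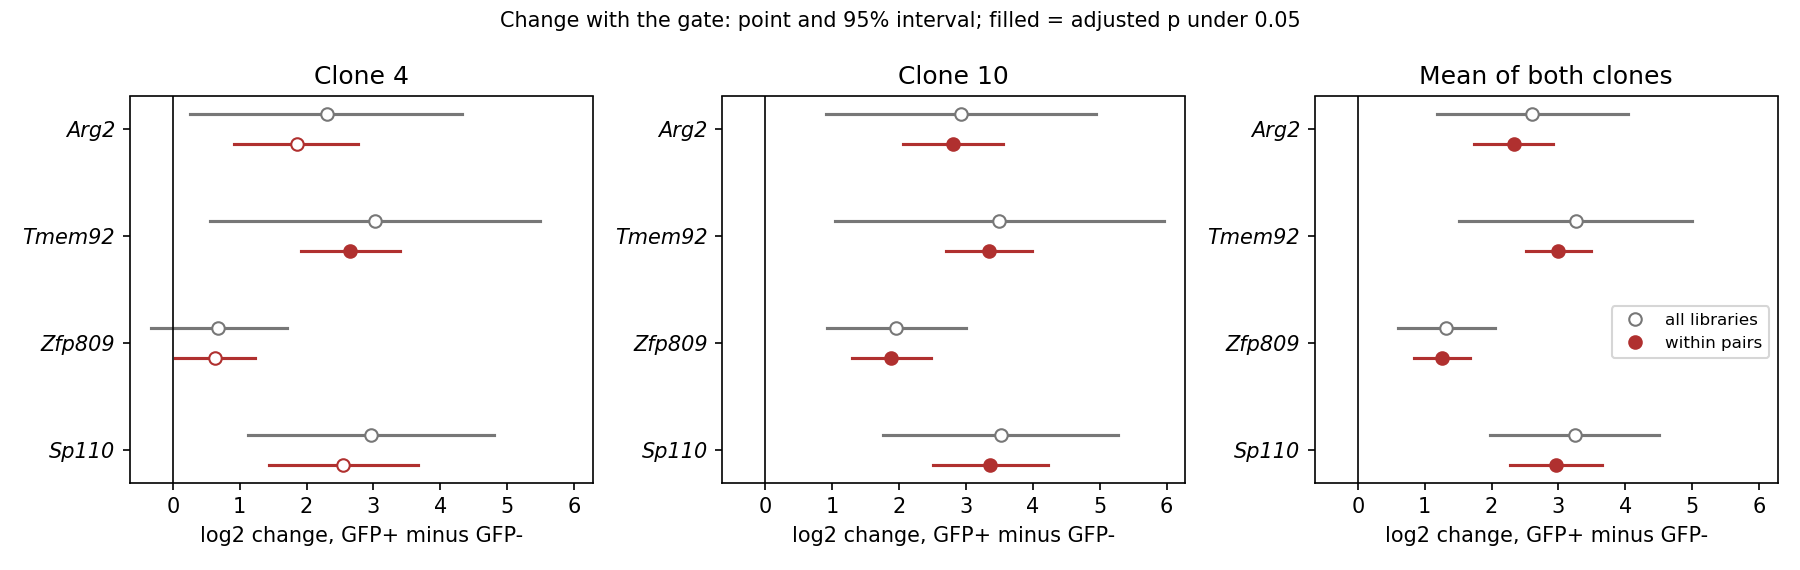
Fitted log2 change, GFP+ minus GFP-, for each gene in clone 4, clone 10 and the mean of both clones; grey is the fit across all libraries, red the fit within pairs, lines are 95% confidence intervals and filled points have an adjusted p under 0.05. The estimates of both fits lie close together and the intervals within pairs are shorter; filled points are Tmem92 in clone 4 and all 4 genes in clone 10 and in the mean.

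The authors' deposited tables, made for each clone on its own, list log2 fold changes of 2.23 for Arg2, 2.07 for Tmem92, 1.64 for Zfp809 and 2.46 for Sp110 in clone 10. Their adjusted p-values there run from 5.24e-08 to 6.77e-05 in the authors' deposited table. Of the 22753 genes listed, 4284 without a p, 409 were called higher and 9 lower in clone 10. In clone 4 the authors' table had 1 higher and 7 lower. For clone 4 the authors' deposited table lists 0.61, 0.72, 0.38 and 0.98. It gives Zfp809 an adjusted p of 1 and lists the p of Arg2, Tmem92 and Sp110 as NA, as for 343 genes that have counts.

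Whether the gate difference was larger in clone 10 than in clone 4 was tested directly. The difference of the log2 changes within pairs was 1.25 for Zfp809 (SE 0.36, 95% confidence interval 0.42 to 2.08, unadjusted p = 0.00806, adjusted p = 0.539). It was 0.96 for Arg2 (interval -0.22 to 2.15), 0.81 for Sp110 (-0.61 to 2.22) and 0.69 for Tmem92 (-0.25 to 1.63). Within pairs edgeR called 0 of 4 genes and 0% of all genes for this difference, with 1 of 4, Zfp809, at an unadjusted p under 0.05, and DESeq2 called 0. By edgeR 1167 of all 15179 genes met that unadjusted level. Across all libraries edgeR also called 0 of 4 and 0% of all genes, with 0 of 4 at an unadjusted p under 0.05. There 140 of all genes met the unadjusted level. A larger response in clone 10 was therefore not shown, and the intervals allow differences of over 1 log2 unit for each gene.

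The clones differed within the same gate as well. In GFP- cells the clone 10 libraries lay above all clone 4 libraries for Arg2, Tmem92 and Sp110 (4.29% of all genes did so), while Zfp809 overlapped. The log2 difference, clone 10 minus clone 4, was 3.5 for Sp110 (SE 0.86), 2.87 for Tmem92 (SE 1.13), 2.24 for Arg2 (SE 0.94) and 0.54 for Zfp809 (SE 0.47). None passed, with adjusted p-values from 0.159 to 0.659 in edgeR, when 0.0395% of all genes were called higher. At an unadjusted p under 0.05 there were 3, beside 1802 of all 15179 genes in either direction, and DESeq2 called 1, Sp110. Without clone 4 GFP- replicate 1 the difference was 4.32 for Tmem92 and 3.23 for Arg2. It was lower without replicate 2 of that group (2.51 and 1.88) or without replicate 3 (2.44 and 1.95).

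In GFP+ cells Arg2, Zfp809 and Sp110 were separate between clones, clone 10 above (11.5% of all genes), and Tmem92 overlapped. The difference was 4.06 for Sp110 (SE 0.83, adjusted p = 0.0424), the 1 call of the 4 genes against 0.83% of all genes. It was 3.35 for Tmem92 (SE 1.12, adjusted p = 0.177), 2.86 for Arg2 (SE 0.92, adjusted p = 0.16) and 1.82 for Zfp809 (SE 0.48, adjusted p = 0.0844). Clone 4 GFP+ replicate 1 weighed on these values. Without it the difference was 5.57 for Tmem92 (adjusted p = 0.0362), 5.08 for Arg2 (adjusted p = 0.0098) and 5.57 for Sp110 (adjusted p = 0.00757), and all 3 passed. The Sp110 call was lost without any one of 9 of the 12 libraries. A clone comparison has no pairs, shares its libraries with the gate comparisons, and rests on 1 clone a side. Passage differed as well. Replicate 1 was at passage 11 or 12 in both clones. Replicates 2 and 3 were at 13 to 16 in clone 4 and 17 to 20 in clone 10. With passage as a covariate (edgeR) the GFP+ difference was 4.82 for Sp110, 4.72 for Tmem92, 3.97 for Arg2 and 1.81 for Zfp809. The GFP- values were 3.97, 3.77, 3.05 and 0.54.

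Per kilobase of merged exons, which sets genes of different length on a common scale, the order of the genes changed with the group. In all 3 clone 10 GFP+ libraries Tmem92 was highest, followed by Arg2, Zfp809 and Sp110, at means of 120 ± 81.1, 37.6 ± 19.9, 25.7 ± 10 and 17.6 ± 10.2 CPM per kb (SD, n = 3). Neighbours in that order lie within each other's spread as groups, though each library has the same order. In the 3 clone 4 GFP- libraries Zfp809 was highest, at 4.59 ± 2.14 CPM per kb, against 1.45 ± 1.57 for Tmem92, 1.06 ± 0.912 for Arg2 and 0.136 ± 0.0583 for Sp110. Sp110 was the lowest in all 12 libraries, on the longest merged exons of the 4 genes, 6781 bp.

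Across the 12 libraries the log2 levels of the 4 genes correlated with each other at Pearson r from 0.801 (Tmem92 with Zfp809) to 0.979 (Tmem92 with Sp110). The points share library, clone and gate. Taken as differences within the 6 pairs, r ran from 0.721 (Zfp809 with Sp110) to 0.946 (Tmem92 with Sp110). Against the summed level of 5 Zscan4 genes, which encode SCAN domain zinc finger proteins, r was 0.985 for Sp110, 0.971 for Arg2, 0.971 for Tmem92 and 0.872 for Zfp809. The Zscan4 sum itself ran from 2.5 to 8.34 CPM in clone 4 GFP- libraries, 16.9 to 164 in clone 4 GFP+, 39 to 76.3 in clone 10 GFP- and 479 to 1990 in clone 10 GFP+. The rank order of the libraries was close to that of the Zscan4 sum for Sp110 (Spearman rho 0.986) and less close for Zfp809 (0.825).

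**Figure D3:**
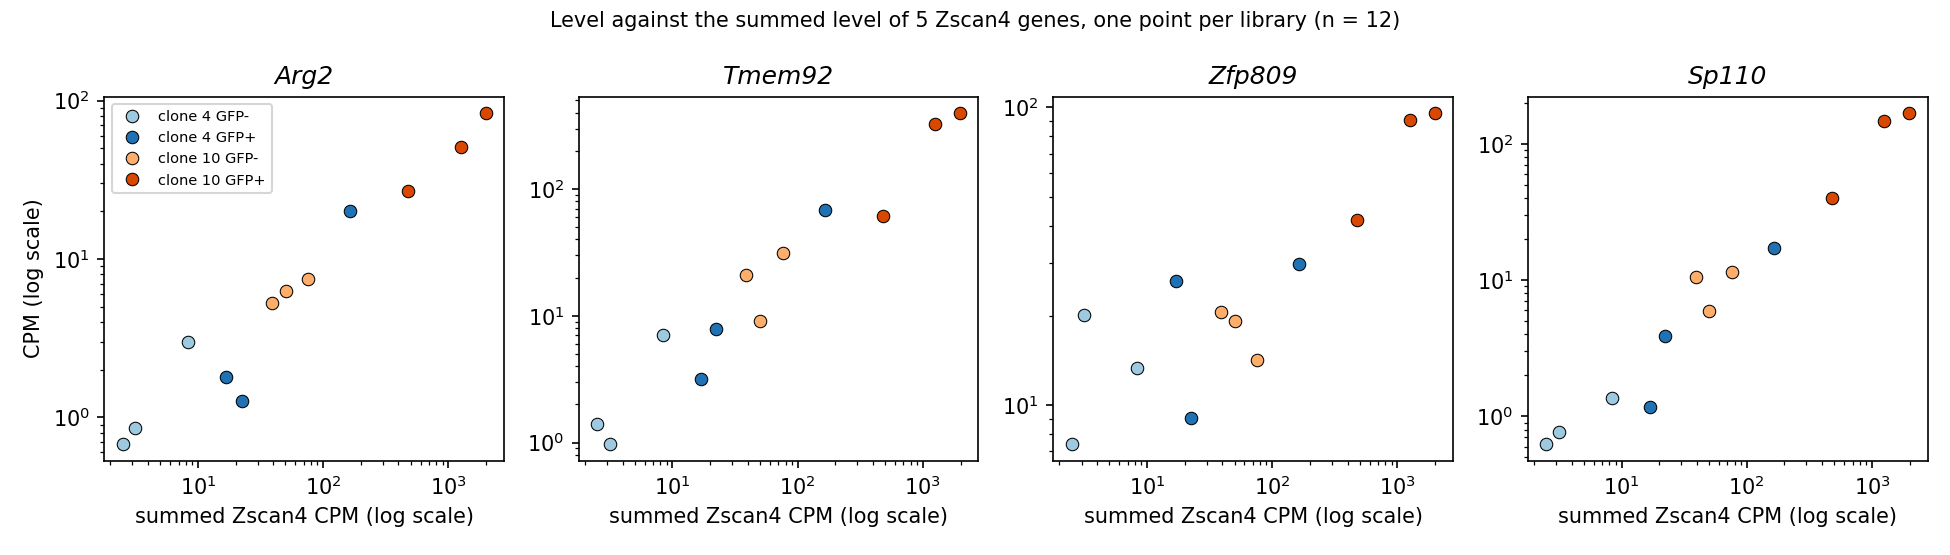
Level of each gene in CPM against the summed CPM of 5 Zscan4 genes, both axes logarithmic, 1 point per library (n = 12), coloured by clone and gate. Arg2, Tmem92 and Sp110 climb along the whole range, and Zfp809 stays between 7.4 and 29.7 CPM until the clone 10 GFP+ libraries.

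The genes most like each of the 4 over the 12 libraries were taken by Pearson r, leaving out predicted names. Closest to Arg2 were Prr18 (0.992), the aquaglyceroporin gene Aqp9 (0.99), the growth factor gene Fgf1 (0.983), Ankrd22 (0.983) and the cytokine gene Il34 (0.983). Closest to Tmem92 were the galectin gene Lgals4 (0.991), Trim75 (0.991), Cml2 (0.988), Spz1 (0.988) and Aqp9 (0.986). Closest to Sp110 were the deubiquitinase gene Usp17lc (0.996), Tdpoz3 (0.992), H2-M10.4 (0.991), Cml2 (0.991) and Spz1 (0.989). Closest to Zfp809 were the heat shock protein gene Hspa1b (0.976), Igfbp3 (0.975), Unc80 (0.971), the DNA repair nuclease gene Ercc4 (0.969) and Pramef8 (0.968). Cml2 and Spz1 stand in the lists of both Tmem92 and Sp110 and Aqp9 in those of Arg2 and Tmem92, while Zfp809 shared none of its 5.

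Other genes of the 2-cell-like state rose with them within pairs, by edgeR. All 5 Zscan4 genes tested rose in clone 10 and 2 in clone 4, with medians of 4.37 and 3.47 on the log2 scale, where the median of all tested genes was -0.01 and 0. Of 11 tested Usp17l, Tdpoz and Tcstv genes, 11 rose in clone 10 and 1 in clone 4 (medians 3.79 and 2.73). Of 7 others, among them Zfp352, Ubtfl1, Spz1 and Tmem132c, 7 rose in clone 10 and 2 in clone 4 (medians 3.45 and 3.01). The log2 change of Zfp352, a zinc finger gene of the 2-cell embryo, was 3.87 in clone 10 (SE 0.34, adjusted p = 0.00174) and 4.51 in clone 4 (SE 0.62, adjusted p = 0.0492). Across all libraries edgeR called 0 genes of these 3 groups in either clone, and 4, 2 and 0 in the mean. At an unadjusted p under 0.05 there were 5 of 5, 11 of 11 and 7 of 7 in clone 10 and in the mean, and 5, 9 and 6 in clone 4. The gene groups here were chosen with earlier results known and their counts are descriptions.

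By edgeR within pairs, fewer genes were called in the pathways of Arg2 and Zfp809 than in the gene groups above. Around Arg2, edgeR within pairs called 0 of 22 tested genes of arginine, ornithine and polyamine metabolism in clone 4, clone 10 or the mean, with a median of -0.21 in clone 10. At an unadjusted p under 0.05, 2 were higher and 5 lower in clone 10, where DESeq2 within pairs called 1 higher and 2 lower and limma-voom 0. Odc1, which makes putrescine from ornithine, differed by -0.11 there (SE 0.13, adjusted p = 0.597). Oat, which turns ornithine toward proline and glutamate, differed by 0.43 (SE 0.15, adjusted p = 0.134), and the cationic amino acid transporter gene Slc7a2 by 0.78 (SE 0.24, adjusted p = 0.105).

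Around Zfp809, edgeR within pairs called 0 of 19 genes of the machinery that KRAB zinc finger proteins recruit in these comparisons, with a median of -0.13 in clone 10. There 1 was higher and 4 lower at an unadjusted p under 0.05, and DESeq2 called 3 lower and limma-voom 2 lower. At that level 6 were higher and 0 lower in clone 4, where the median was 0.06 and DESeq2 and limma-voom called 0. In the mean 2 were higher and 2 lower, and DESeq2 called 1 higher and 1 lower. Trim28, the corepressor itself, differed by -0.41 in clone 10 (SE 0.19, adjusted p = 0.215), and Setdb1, the histone H3 lysine 9 methyltransferase, by -0.03 (SE 0.11, adjusted p = 0.872). Of 27 other zinc finger genes, edgeR called 0, with a median of 0.08 in clone 10, where 5 were higher and 3 lower at an unadjusted p under 0.05, DESeq2 called 1 higher and limma-voom 0. The smallest p among them was that of Zfp74, at 0.69 (SE 0.19, adjusted p = 0.0783). In clone 4, 4 of the 27 were higher and 0 lower at an unadjusted p under 0.05. In the mean 6 were higher and 2 lower at that level, and DESeq2 within pairs called 3 higher.

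Around Sp110, edgeR within pairs called 3 of 5 tested SP100 family genes higher in clone 10 and 0 in clone 4 (3 at an unadjusted p under 0.05, DESeq2 1, limma-voom 0), with medians of 2.85 and 1.31. Sp140, whose start lies 1.56 kb from Sp110 on the opposite strand, rose by 2.95 in clone 10 (SE 0.34, adjusted p = 0.0026) and differed by 1.31 in clone 4 (SE 0.47, adjusted p = 0.589). C130026I21Rik rose by 2.85 in clone 10 (SE 0.32, adjusted p = 0.00242) and A530032D15Rik by 3.92 (SE 0.77, adjusted p = 0.0439). C130026I21Rik shares 303 of the 50-base words of Sp110, and what part shared reads play was not tested. Sp100, the founding member of the family, differed by -0.90 (SE 0.32, adjusted p = 0.136).

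Sp110 is known as an interferon-inducible gene, and the listed interferon response genes were counted beside it. Of 27 tested, edgeR within pairs called 0, 3 and 5 lower in clone 4, clone 10 and the mean, where 0.0461%, 0.731% and 0.85% of all genes were called lower. The medians were -0.13, -0.25 and -0.25. It called 0 of 27 higher in all 3, with at most 1 of 27 higher and 7, 8 and 10 lower at an unadjusted p under 0.05. DESeq2 within pairs called 1 higher in clone 10. Within pairs DESeq2 called 5, 5 and 8 of 27 lower in clone 4, clone 10 and the mean, and limma-voom 0, 3 and 6. Across all libraries 0 of 27 were called lower by edgeR in all 3, where 0%, 0% and 0.00659% of all genes were. There 0, 1 and 2 of 27 were lower at an unadjusted p under 0.05, and DESeq2 and limma-voom also called 0. In the mean within pairs, Psmb8, an immunoproteasome subunit, fell by 1.16 on the log2 scale (SE 0.15, adjusted p = 0.0044). Ifit3, a classical interferon-induced gene, fell by 1.40 (SE 0.24, adjusted p = 0.019). B2m, the light chain of MHC class I, fell by 0.76 (SE 0.15, adjusted p = 0.0313), and Isg15, a ubiquitin-like modifier, by 0.60 (SE 0.12, adjusted p = 0.0315).

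Neighbours on the chromosome were compared to see whether the changes extended past the genes. Of the nearest 2 genes on each side in the deposited tables, 16 in all, 12 were tested. Within pairs 1 of 12, Sp140, rose in clone 10 and in the mean, and 0 passed in clone 4. Zfp599, a zinc finger gene 4.23 kb from Zfp809, differed by 0.68 in clone 10 (SE 0.18, adjusted p = 0.0674). Vti1b, which overlaps the 3′ end of Arg2, differed by -0.44 (SE 0.18, adjusted p = 0.18), the opposite sign to Arg2. Col1a1, the nearest tested gene to the right of Tmem92, lies 154 kb away and differed by -0.20 (SE 0.34, adjusted p = 0.735).

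**Figure D4:**
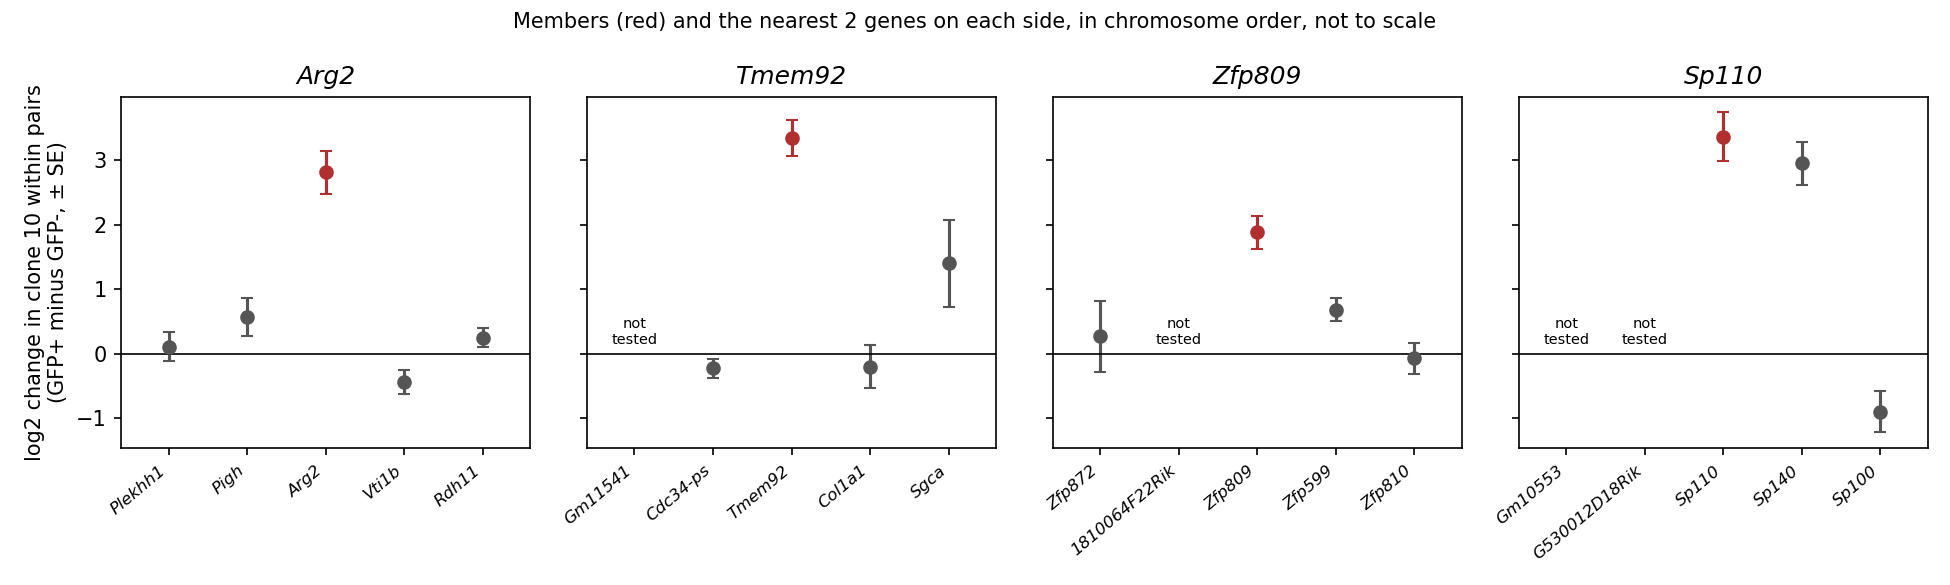
Log2 change in clone 10 within pairs, GFP+ minus GFP-, ± SE, for each of the 4 genes (red) and its 2 nearest genes on each side (grey), in chromosome order and not to scale; genes too low to test are marked. Each red point stands above its neighbours by more than their SE, except at Sp110, where the bars of Sp110 at 3.36 and Sp140 at 2.95 overlap.

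Markers of other cell types were read beside these changes. Of 8 fibroblast markers, 4 fell in the mean of both clones within pairs: Postn (-1.58, SE 0.19), S100a4 (-1.86, SE 0.26), Acta2 (-1.88, SE 0.26) and Vim (-1.05, SE 0.16), with adjusted p-values from 0.00362 to 0.0128. Of all genes 0.85% were called lower in that comparison. In clone 4, 2 of 8 fell and in clone 10, 0, with 3 of 8 lower there at an unadjusted p under 0.05, where DESeq2 called 2 and limma-voom 3. Across all libraries edgeR called 0 of 8 lower in clone 4, clone 10 or the mean. At an unadjusted p under 0.05 there were 2, 0 and 3, while DESeq2 called 1, 0 and 2 and limma-voom 0. The marker sum was 1070 to 2300 CPM in clone 4 GFP- libraries, 871 to 1440 in clone 4 GFP+, 668 to 2960 in clone 10 GFP- and 1080 to 1880 in clone 10 GFP+, and no marker was at 0 in any library. Of 4 tested trophoblast markers 0 changed. Of 4 primitive endoderm markers 1, Sox17, rose in clone 10 (1.59, SE 0.35, adjusted p = 0.0413). The part of the fibroblast markers and of the mitochondrial share in the rise of the 4 genes was not tested. Passage was labelled 1 later in the GFP+ library of 5 pairs. With passage as a covariate in the fit across all libraries, the log2 change in the mean of both clones was 2.65 for Arg2, 3.42 for Tmem92, 1.32 for Zfp809 and 3.26 for Sp110, and 3 of the 4 passed.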

How the data were processed

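The values analysed are read counts, deposited unnormalized as whole numbers for each gene and library. The submitters' processing notes name STAR 2.3.0e, HTSeq 0.6.0, DESeq, DESeq2 and mm10 without roles; the annotation release is not given in the sources used here. Per the file headers, the authors' deposited table for each clone adds a signal (counts over a size factor), log2 fold changes, their score (fold change over its error) and p-values. Symbols and coordinates came from those tables.

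edgeR 4.0.16 in R 4.3.3 fitted the counts with TMM scaling and a robust quasi-likelihood F test. Genes needed the equivalent of 10 counts in a median-sized library, in 3 libraries, and 15 counts overall; 15179 passed and 7574 did not. The 12 libraries were fitted together, 1 term for each group (8 residual degrees of freedom). Benjamini-Hochberg adjustment covered every tested gene, and calls needed an adjusted p under 0.05. The fit named within pairs adds the pair as a block (4 residual degrees of freedom). It was set as the alternative to the fit across all libraries. Deviations from group means correlated at 0.548 to 0.822 in the 6 same-numbered pairs, against -0.541 to -0.228 for other numbers within a clone. Such deviations cancel out within a group, so positive values at same numbers push the others down. Same-numbered libraries thus shared variation. The labels do not say that a pair came from a single culture, and passage differs within most pairs. The biological variation coefficient was 0.389, and 0.175 with the block. The fits were tested on simulated data.

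The genes to be named were the 4 genes, their 5 most correlated tested genes (log2 CPM, prior count 2), the nearest 2 genes on each side, and up to 4 genes of each list by smallest p. Trim28, Setdb1, Odc1, Oat and Slc7a2 were added for their roles after values were seen. The 4 genes and the lists were chosen with earlier results of these data known. The lists were Zscan4 genes, Usp17l, Tdpoz and Tcstv genes, other 2-cell genes, arginine and polyamine metabolism, KRAB repressor machinery, other zinc finger genes, SP100 family, interferon response, and markers of stem cells, fibroblasts, trophoblast and primitive endoderm. Alternatives used DESeq2 1.42.0, limma 3.58.1 (voom), other scalings and filters, passage as a covariate and fits without each library or pair. Exon lengths and shared words were computed with Python 3.11.15 and pandas 2.3.3.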

Additional observations from a re-analysis of the deposited data

How the results depend on the processing

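Of the 4 genes, edgeR across all libraries called 0 in clone 4, 0 in clone 10, 0 in the mean of both clones, 0 between clones in GFP- cells and 1 between clones in GFP+ cells. With the replicate block these gate counts were 1, 4 and 4. DESeq2 gave 1, 3 and 4 for the gate, 1 in GFP- and 3 in GFP+ cells, and DESeq2 with the replicate block 3, 4 and 4. The share of all genes that DESeq2 and limma-voom called is not given. With limma-voom the GFP+ count was 4, with the stricter filter 0, with only the libraries compared 0 and with passage as a covariate 2. The mean count was 1 with no filter and 3 with passage. Leaving out 1 library at a time gave 0 to 1 in clone 10, 0 to 2 in the mean and 0 to 3 in GFP+ cells. Within pairs, the clone 4 count of 1 became 3 with DESeq2, and, in alternatives chosen after seeing the data, 2 with no filter, 0 with the stricter filter and 0 with limma-voom. It was 0 without any single clone 4 pair, and 0 to 1 over all pairs left out.

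The difference between the clones in the gate change, across all libraries, turned sign for Arg2 and Tmem92. Without 1 library it ran from -0.37 to 2.85 for Arg2, lowest without clone 4 GFP- replicate 1, and from -0.97 to 2.7 for Tmem92, lowest without the same library and -0.06 without clone 4 GFP+ replicate 3. No gate change within pairs and no clone difference within a gate turned sign for any of the 4 genes in the alternatives run. The cause of these moves was not tested. In clone 4 GFP- libraries Sp110 had 12 to 30 counts and Zfp809 142 to 496.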
